A study of Mus musculus with 30 samples.

Results

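The early growth response (Egr) genes Egr1, Egr2, Egr3 and Egr4 encode zinc finger transcription factors. They were followed here through the probes that carry 1 of these gene names on the array, which gave 5 of 33453 named probes and 4 of 21689 named genes. Egr1, Egr2 and Egr4 had 1 probe each. Egr3 had 2 probes, 1 designed on a RIKEN cDNA and 1 designed on the RefSeq transcript.

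RNA of immortalised mouse embryonic fibroblasts (MEFs) in exponential growth was hybridised to 30 Agilent whole genome mouse arrays, 2 for each of 15 groups. The 11 wild type groups were anisomycin (25 ng/ml, 45 min), TNFα (100 ng/ml, 45 min), NaCl (100 mM, for 45 min, 2 h or 8 h), the inhibitor SB203580 alone, and SB203580 combined with each of those 5 treatments. The 4 p38α-/- groups were untreated cells and cells given the same doses of anisomycin for 45 min, TNFα for 45 min or NaCl for 2 h. Each array compared the sample (Cy5) with a pool of 2 untreated wild type cultures (Cy3), without dye swap, so no array carried an untreated wild type sample of its own and the spread of the pool is not part of any test.

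Anisomycin is a protein synthesis inhibitor that activates stress kinases, TNFα is an inflammatory cytokine, and added NaCl raises the osmolarity of the medium. SB203580 inhibits the p38α and p38β kinases, and p38α is the product of Mapk14. The treatment protocol and the study's methods both state SB203580 as 10 µM for 30 min before the stress. The sample titles alone differ, with 10 mM for 2 h. Only 1 immortalised MEF line of each genotype is named, and differences between the genotypes cannot be told apart from differences between these lines. In bulk RNA, fewer cells carrying a transcript and less transcript per cell cannot be told apart. The study's methods speak of independent experiments but do not name separate embryos, so the p-values measure only the spread between these arrays, and with 2 arrays per group the number of arrays limits the precision.

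Egr genes are immediate early genes: transcription starts soon after growth factors, cytokines or stress reach the cell and needs no new protein. Serum response factor (Srf), with Ets partners such as Elk1 that MAP kinases phosphorylate, acts at CArG boxes of their promoters. The proteins bind GC-rich sites, and the corepressors Nab1 and Nab2 bind Egr1, Egr2 and Egr3 and limit their activity. Egr1 is the member known best from serum and stress responses of fibroblasts. Egr2 is known for myelination by Schwann cells, Egr3 for muscle spindles and T cells, and Egr4 for male germ cells.

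The promoter table of RefSeq (build GRCm38.p6, windows of 250 bases before to 50 after a start site) holds windows of Egr2 and Egr4. Egr1 and Egr3 are named only. The stretches of 30 bases shown here carry the motifs by which this family is usually described as stress and serum responsive, read 5′ to 3′ on the strand of the gene, with every motif match in capitals.

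Egr2, chr10:67537793-67537822, plus strand: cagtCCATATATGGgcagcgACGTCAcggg

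Egr2, another start site, chr10:67537494-67537523, plus strand: CCTTTTTTGGaaagtctcggagaaCCGGAA

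Egr4, chr6:85513750-85513779, minus strand: gcggcggcagcaACGTCAcaggccgagctt

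Egr4, chr6:85513682-85513711, minus strand: gtttggtcatttACGTCAcggcgccagggc

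Motifs were searched on both strands. In both Egr2 stretches the first capitals are a CArG box (CC, then 6 bases that are A or T, then GG), which starts 72 bases before the start site in each. The box of the first stretch also lies in overlapping Egr2 windows, 73 and 133 bases before their start sites. The members have 6 windows, and an Egr2 window without any match is not shown. The CArG box was found in 1.63% of all 32851 windows. The reverse complement of the cyclic AMP element core TGACGT follows in the first Egr2 stretch and is the match in both Egr4 stretches, where it starts 178 and 110 bases before the start site. TGACGT was found in 7.51% of all windows. The second Egr2 stretch ends in the Ets core CCGGAA, found in 14.9% of windows. The Egr4 window held no CArG box and no CCGGAA, and neither member's windows held the Egr binding sequences GCGTGGGCG (0.612% of windows) or GCGGGGGCG (2.91%). These matches describe letters only.

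Values are log2 ratios of sample over pool, so that 0 is the level of the pool and 1 is a 2-fold higher level. Mapk14 lay below the pool on all 8 p38α-/- arrays (-2.24 to -0.94) and above it on all 22 wild type arrays (0.03 to 1.31), as the labels give it. Between 81.1% and 96.8% of spots were well above background in Cy5, and 6.78% to 44.8% were marked as outliers by the image software. All 5 Egr probes were well above background in both channels on all 30 arrays and none was saturated. That mark separates little here, since it also held on all arrays for 6 of 6 macrophage markers and for 3 of 4 endothelial markers in Cy5, as for 11 of 11 fibroblast markers. Outlier spots were left out of the tests unless stated, which removed 3 of 30 spots of Egr1, 8 of Egr2, none of the RIKEN cDNA probe of Egr3, 2 of its RefSeq probe and 1 of Egr4.

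Egr1 was the member that moved most. It was above the pool on 26 of 30 arrays and below it on the 4 arrays of NaCl for 8 h, with a range of -1.63 to 4.94 and a median of 2.12. It was at least 2.5-fold from the pool on 21 arrays. Of the 50 means of a member in a group that had both arrays, 16 differed from the pool (limma, Benjamini-Hochberg adjusted p below 0.05), 14 higher and 2 lower, and 12 of them were Egr1. Over all genes 14.6% of such means passed. In the same fit 20 of the 50 had an unadjusted p below 0.05. With outlier spots kept 20 of 60 passed the adjusted threshold, where 24.1% of all gene means passed. With the brightest probe of each gene, which is the RefSeq probe for Egr3, 20 of 48 member means passed, 13 higher and 7 lower. The share over all genes in that last fit is not given here.

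In wild type MEFs anisomycin gave the highest Egr1 values of the series, 4.94 and 4.48 on its 2 arrays. The mean was 4.71 ± 0.33 (SD, n = 2), or 26.2-fold over the pool (limma, SE 0.25, adjusted p = 8.74e-09). With only the compared groups in the fit this mean did not pass (limma, adjusted p = 0.156). Both arrays lay above every array of every other group. Egr1 and Egr3 passed of the 3 members measured, where 11.9% of all genes did. The Egr3 call is that of the mean of its probes. The RIKEN cDNA probe was above the pool and the RefSeq probe below it.

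TNFα gave Egr1 values of 2.784 and 3.002, a mean 7.43-fold over the pool (limma, adjusted p = 3.11e-06). Here too Egr1 and Egr3 passed of 3 members, against 10.8% of genes. The probes of Egr3 again went opposite ways, with means of 1.98 (RIKEN cDNA) and -0.28 (RefSeq). The difference between anisomycin and TNFα was 1.82 ± 0.36 (SE) and narrowly missed the threshold (limma, adjusted p = 0.0513). It passed with the replicate number in the fit (adjusted p = 0.0173) and with the scan batch in the fit (adjusted p = 0.0286). It did not pass with outlier spots kept, with median centring or with only the compared groups in the fit.

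NaCl followed a course in time. At 45 min Egr1 was 1.82 and 0.84, by 2 h it was 2.07 and 2.32, and by 8 h it was -1.35 and -1.20. The 45 min value rests on 1 accepted spot, since the spot of the second array was marked as an outlier; with it kept the mean was 1.33 (limma, adjusted p = 0.0021). At 2 h the mean was 4.58-fold over the pool (adjusted p = 4.57e-05) and at 8 h 0.414 of the pool (adjusted p = 0.00149).

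The level thus changed from above to below the pool between 2 h and 8 h on both arrays. Egr1 fell by 3.47 ± 0.36 (SE) on the log2 scale from 2 h to 8 h (limma, adjusted p = 2.67e-05), where 7.77% of genes changed. With outlier spots kept it also fell by 2.60 from 45 min to 8 h (adjusted p = 2.18e-04), and the 0.86 between 45 min and 2 h did not pass (adjusted p = 0.726). At 45 min no member passed of the 1 measured, Egr3, against 9.8% of genes. At 2 h Egr1 alone passed of 4 (9.93% of genes), and at 8 h Egr1 alone passed of 3 (22.2% of genes).

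**Figure D1:**
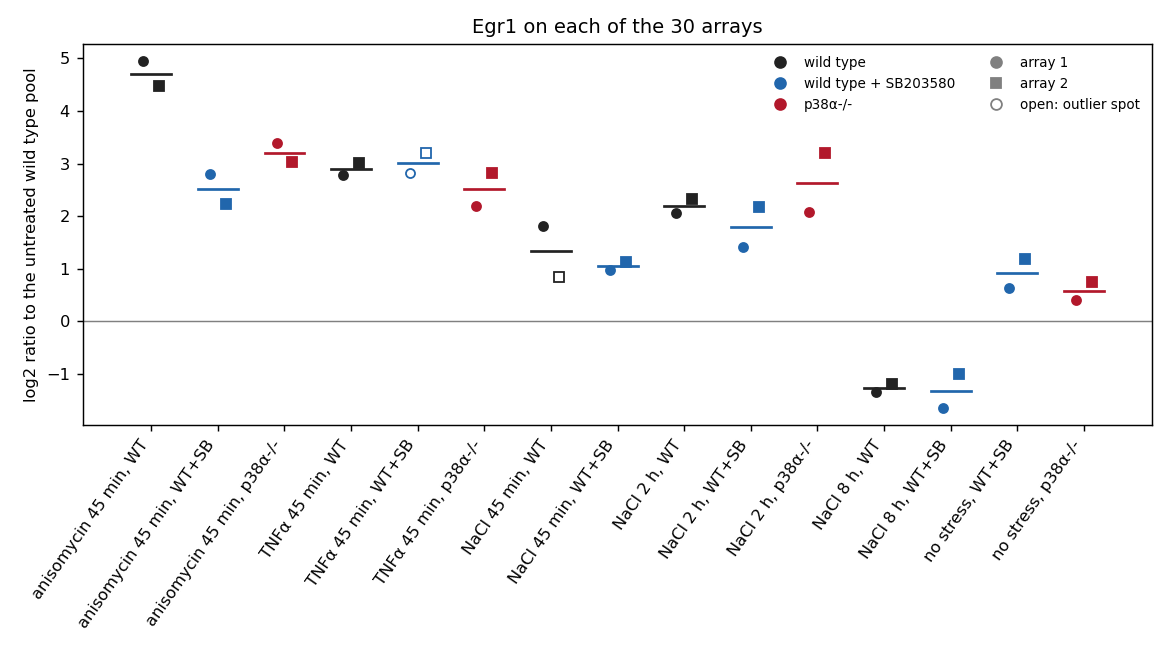
Log2 ratio of Egr1 to the untreated wild type pool on each of the 30 arrays, grouped by treatment on the horizontal axis. Circles and squares are the first and second array, open symbols are outlier spots, bars are the means of both arrays, black is wild type, blue is wild type with SB203580 and red is p38α-/-. The wild type anisomycin arrays (4.94 and 4.48) lie above all others, and the 4 arrays of NaCl for 8 h lie below 0.

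SB203580 alone left Egr1 above the pool, at 0.65 and 1.19, a mean of 1.89-fold (limma, adjusted p = 0.0139). Neither array was at the level of the pool, and without either 1 the call was lost. Egr1 alone passed of 3 members, where 26.5% of all genes did.

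With SB203580, Egr1 reached 2.81 and 2.24 under anisomycin, against 4.94 and 4.48 without it. The groups did not overlap. The difference was -2.19 ± 0.36 (limma, SE, adjusted p = 0.0454), and within the scan batches that hold both groups it was -2.14 and -2.24. It was the only 1 of 13 member differences tested between SB203580 and stress alone that passed, and it was 1 of 4 genes of 14685 called in this comparison (0.0272%; 0.0493% over all 5 stresses). At an unadjusted p below 0.05 there were 2. With outlier spots kept 1 of 20 passed (0.0498% of gene differences), and the call was lost without any 1 of the 4 arrays (-2.47 to -1.90). The call was also lost with only the compared groups in the fit.

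Under TNFα, NaCl for 45 min, NaCl for 2 h and NaCl for 8 h no such difference of Egr1 passed. Egr1 with SB203580 and TNFα was 2.82 and 3.21, both outlier spots, which gave a mean of 3.01 with these kept (limma, adjusted p = 1.08e-06). The groups with and without the inhibitor overlapped, with a difference of 0.12 (95% interval -0.67 to 0.91).

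Egr1 with SB203580 and NaCl was 0.97 and 1.14 at 45 min, 1.42 and 2.17 at 2 h, and -1.63 and -0.99 at 8 h. The differences from NaCl alone were -0.28 (outlier spot kept, -1.07 to 0.52), -0.40 (-1.15 to 0.35) and -0.04 (-0.79 to 0.71). These intervals leave room for a change of 1.15 on the log2 scale downwards at 2 h. That bound is not the smallest change these arrays could call. Under the same rule the -2.19 of Egr1 under anisomycin only just passed (limma, adjusted p = 0.0454).

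The time course of Egr1 under NaCl had the same direction with the inhibitor. From 2 h to 8 h it fell by 3.11 (limma, adjusted p = 8.13e-05; 7.3% of genes called), and from 45 min to 8 h it fell by 2.37 (adjusted p = 7.05e-04; 6.51% of genes). Of 17 member differences between NaCl times 3 passed, all of them Egr1 and all lower at 8 h, where 5.01% of gene differences over the 6 comparisons passed. With outlier spots kept 4 of 24 passed (5.35%).

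Against the pool, Egr1 alone passed of 4 members in SB203580 with anisomycin (5.75-fold, adjusted p = 3.38e-05; 11.5% of genes). It alone passed of 4 also in SB203580 with NaCl for 45 min (2.08-fold, adjusted p = 0.00985; 16.7% of genes), for 2 h (3.47-fold, adjusted p = 2.29e-04; 16.9%) and for 8 h (0.402 of the pool, adjusted p = 0.00144; 21.1%). The call at 45 min was lost without either array (1.14 and 0.97) and that at 8 h without the first (-0.99). In SB203580 with TNFα none of the 2 members measured passed, where 9.43% of genes did, since both Egr1 spots were left out.

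Untreated p38α-/- MEFs had Egr1 at 0.42 and 0.76. Both arrays were above the pool, yet the mean of 0.59 did not pass (limma, adjusted p = 0.128). No member of 4 passed in this group, where 14.9% of genes did.

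In p38α-/- MEFs Egr1 was 3.40 and 3.02 under anisomycin, below both wild type arrays. The mean was 9.25-fold over the pool (limma, adjusted p = 7.06e-07), and the difference from wild type MEFs was -1.50 ± 0.36 (SE, adjusted p = 0.0480). The call lies close to the threshold: the adjusted p was 0.0535 with outlier spots of all genes kept, none of the 4 single arrays could be left out without losing it, and the difference was -1.08 within the 1 scan batch that holds both groups. In this comparison 1.33% of genes passed.

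TNFα gave Egr1 values of 2.20 and 2.83 in p38α-/- MEFs, which overlap those of wild type MEFs. The difference was -0.38 (95% interval -1.13 to 0.37). NaCl for 2 h gave 2.07 and 3.20, with a difference from wild type MEFs of 0.44 (-0.31 to 1.19), while within the shared scan batch the differences were -0.80 with TNFα and -0.25 with NaCl. Egr1 was 5.71-fold over the pool with TNFα (limma, adjusted p = 1.12e-05), the only 1 of 3 members that passed (7.56% of genes), and 6.22-fold with NaCl (adjusted p = 4.27e-06). Of 10 member differences between p38α-/- and wild type MEFs 2 passed and 4 had an unadjusted p below 0.05, against 0.828% of gene differences over the 3 stresses. With the replicate number in the fit 4 passed (2.5% of gene differences).

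SB203580 alone was above the pool, and untreated p38α-/- MEFs had a mean of 0.59 that did not pass. The rise of Egr1 from the unstressed group of the same arm was therefore set against the rise of wild type MEFs from the pool. Under anisomycin that rise was smaller by 3.11 ± 0.43 (limma, SE, adjusted p = 0.00706) on the log2 scale with SB203580 and by 2.09 ± 0.43 (adjusted p = 0.0425) in p38α-/- MEFs. Of 22 such member differences only these 2 passed, and 9 had an unadjusted p below 0.05. In those comparisons 0.569% and 0.563% of genes passed, and 0.545% over all 8. The wild type rise used in both is the same pair of arrays.

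Under NaCl for 2 h the rise of Egr1 differed by -1.32 with SB203580 (limma, adjusted p = 0.117; 0.0498 with the scan batch in the fit) and by -0.14 in p38α-/- MEFs (adjusted p = 0.911). Under TNFα it differed by -0.97 in p38α-/- MEFs (adjusted p = 0.322). With the replicate number in the fit 4 of 22 differences passed (2.99% of gene differences), the additional ones being those of Egr3 under anisomycin.

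Egr1 still rose in p38α-/- MEFs against their own untreated cells, a baseline chosen after the data were seen. It rose by 2.62 ± 0.36 (limma, SE, adjusted p = 0.00441) with anisomycin, where 0.0848% of genes changed, and by 2.05 (adjusted p = 0.00785) with NaCl for 2 h, where 1.14% did. Without the first untreated p38α-/- array neither passed (2.45 and 1.88), nor did the former without the first anisomycin array (2.43) or the latter without the second NaCl array (1.49). The 1.93 with TNFα did not pass (adjusted p = 0.0609), while with the replicate number in the fit it did (0.0219).

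Against SB203580 alone, Egr1 with the inhibitor fell by 2.23 at 8 h of NaCl (limma, adjusted p = 0.00101; 7.71% of genes). The rise of 1.61 with anisomycin did not pass (adjusted p = 0.336), and the rise of 2.10 with TNFα passed with outlier spots kept (adjusted p = 0.0202). Of 25 such differences 3 passed, all of them Egr1, where 1.48% of gene differences over the 8 comparisons did. With outlier spots kept 4 of 32 passed (1.59% of gene differences), and with the replicate number in the fit 5 of 25 (2.35%).

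Ordered by the mean of all spots, Egr1 ran from anisomycin in wild type MEFs (4.71) through anisomycin in p38α-/- MEFs (3.21), SB203580 with TNFα (3.01), TNFα (2.89), NaCl for 2 h in p38α-/- MEFs (2.64), SB203580 with anisomycin (2.52) and TNFα in p38α-/- MEFs (2.51) to NaCl for 2 h (2.19). Below these came SB203580 with NaCl for 2 h (1.79), NaCl for 45 min (1.33), SB203580 with NaCl for 45 min (1.06), SB203580 alone (0.92), untreated p38α-/- MEFs (0.59), NaCl for 8 h (-1.27) and SB203580 with NaCl for 8 h (-1.31). Neighbours in this order overlapped except at 2 places. Anisomycin in wild type MEFs stood clear of the next group, and untreated p38α-/- MEFs stood clear of NaCl for 8 h. The difference between anisomycin and TNFα, 1.82 in wild type MEFs, was 0.70 (95% interval -0.06 to 1.45) in p38α-/- MEFs and -0.49 (-1.28 to 0.30, outlier spots kept) with SB203580. Neither of the latter passed, and how far they differ from the former was not tested.

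No member differed between agents at 45 min in 16 differences tested with limma, of which 3 had an unadjusted p below 0.05, where 0.148% of gene differences passed. With outlier spots kept 2 of 28 passed (0.176%), both Egr1. They were the excess of anisomycin over NaCl of 3.38 (adjusted p = 9.12e-05) and, with SB203580, of TNFα over NaCl of 1.96 (adjusted p = 0.0363). With the replicate number in the fit 1 of 16 passed (0.262%).

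**Figure D2:**
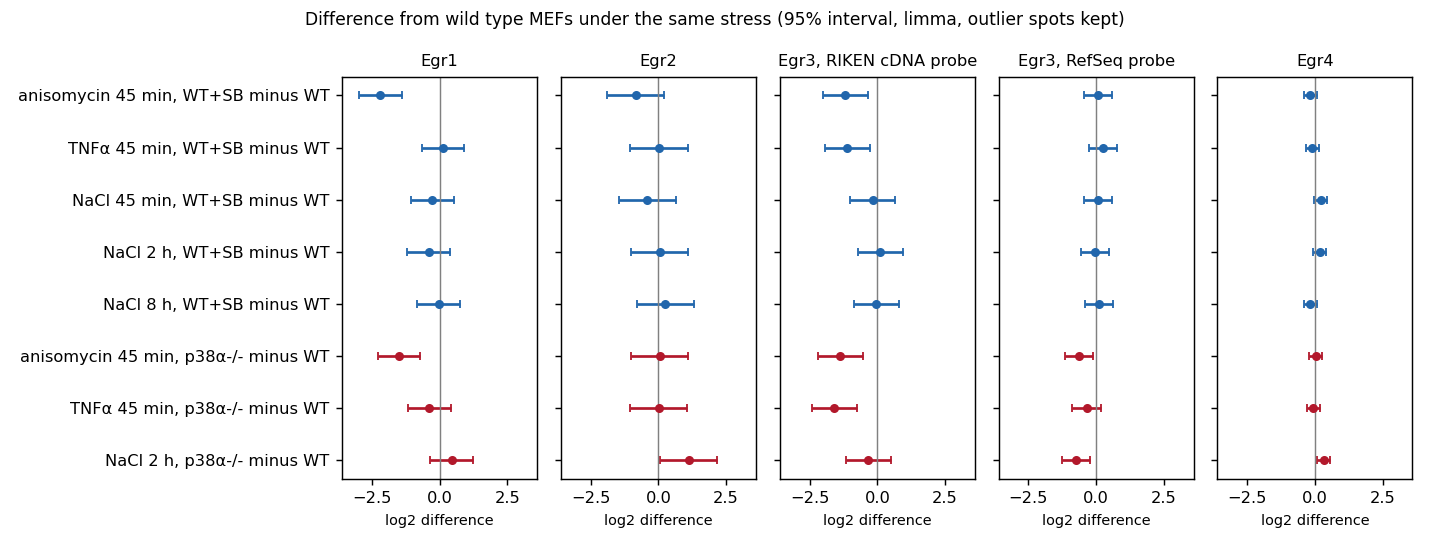
Log2 difference of each probe between SB203580 plus stress and stress alone (blue) or between p38α-/- and wild type MEFs under the same stress (red), with 95% intervals from limma and outlier spots kept. Each panel is 1 probe. The Egr1 interval lies below 0 under anisomycin in both arms and spans 0 under the other stresses, and the RIKEN cDNA probe of Egr3 lies below 0 under anisomycin and TNFα in both arms.

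Egr2 lay mostly a little above the pool, on 27 of 30 arrays, with a median of 0.60 and a range of -0.26 to 2.78. It was at least 2.5-fold from the pool on 3 arrays. It had both spots accepted in 8 groups, and 2 of these means passed, both in p38α-/- MEFs.

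Under anisomycin Egr2 was 1.83 and 1.04 in wild type MEFs, 0.64 and 0.53 with SB203580, and 0.57 and 2.40 in p38α-/- MEFs. Both wild type spots were outlier spots. With these kept the wild type mean of 1.43 passed (limma, adjusted p = 0.0067), and its differences were -0.84 ± 0.50 (SE) with SB203580 and 0.05 ± 0.50 in p38α-/- MEFs, neither of which passed.

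The p38α-/- mean of Egr2 under anisomycin was 1.48 ± 0.41 (limma, SE, adjusted p = 0.0373), so that Egr1 and Egr2 passed of 4 members (12.3% of genes). After NaCl for 2 h Egr2 was 1.15 and 2.78 in p38α-/- MEFs, a mean of 1.96 (adjusted p = 0.00698), and again Egr1 and Egr2 passed of 4 (17.9% of genes). In both groups the second array was far above the first.

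On these second arrays the pool signal of Egr2 was low. Its Cy3 signal was 379 with anisomycin and 640 with NaCl, against a median of 1683 over all 30 arrays, and the sample's Cy5 signal with anisomycin was 1995 on the second array and 2885 on the first. With NaCl the Cy5 signal was higher on the second array, 4411 against 3531. Relative to the median Cy3 signal of its own array, Egr2 in the pool was at -1.39 with anisomycin and -0.40 with NaCl on the log2 scale, against a median of 0.44 over the 30 arrays. Without the second array the means were 0.57 and 1.15, and neither passed. The part of the pool signal in these ratios was not tested. The pool signal of Egr1 varied 2.39-fold over the 30 arrays and that of Egr2 7.65-fold.

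After NaCl for 2 h Egr2 was 0.72 and 0.97 in wild type MEFs and 0.91 and 0.87 with SB203580. All 4 arrays were above the pool and close to each other. Neither mean passed without the replicate number in the fit (limma, adjusted p = 0.226 and 0.162) and both did with it (0.00216 and 0.00111). The same fit called Egr2 in SB203580 with anisomycin (0.59, adjusted p = 0.0128) and in SB203580 with NaCl for 8 h (0.43, adjusted p = 0.0322). In all 22 of 50 means passed in that fit, where 21.9% of gene means did. It also called the excess of Egr2 in p38α-/- over wild type MEFs after NaCl (1.12, adjusted p = 0.0135; 0.488 without the number), which within the shared scan batch was 0.18.

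In the other groups Egr2 had 0.67 and 0.41 with TNFα, 0.46 and 0.64 with TNFα and SB203580, and 0.46 and 0.63 with TNFα in p38α-/- MEFs. These 3 groups overlapped. With NaCl for 45 min it had 0.62 and 0.54, and 0.13 and 0.20 with the inhibitor, where the groups did not overlap but the difference of -0.42 did not pass (outlier spot kept, -1.47 to 0.64).

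**Figure D3:**
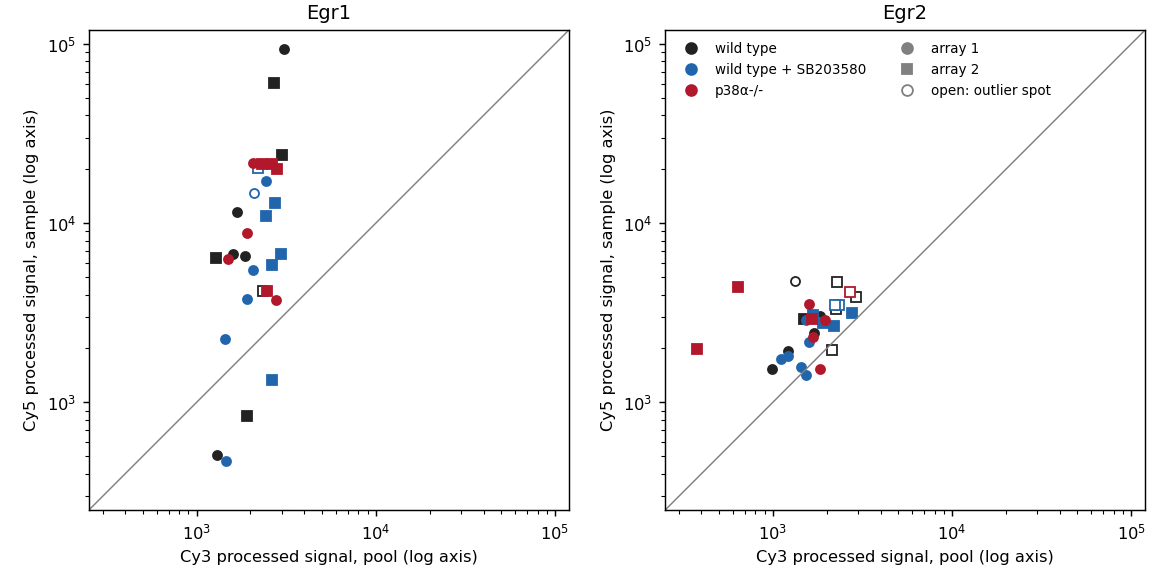
Cy5 signal of the sample against Cy3 signal of the pool for Egr1 and Egr2 on each of the 30 arrays, both axes logarithmic and in processed signal units, with the diagonal at equal signals and open symbols for outlier spots. Egr1 spreads along the sample axis (469 to 94191) at a pool signal of 1278 to 3059, while the highest Egr2 ratios are 2 p38α-/- second arrays with pool signals of 379 and 640.

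The probes of Egr3 did not behave alike. The RIKEN cDNA probe was above the pool on 29 of 30 arrays, with a median of 0.60 in wild type MEFs and of 0.22 in p38α-/- MEFs. The RefSeq probe was below the pool on 26 of 30 arrays, with medians of -0.23 and -0.75. Fitted probe by probe, where 18.3% of all probe means passed, the RIKEN cDNA probe passed in 3 groups, higher in each, and the RefSeq probe in 5 groups, lower in each.

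The RIKEN cDNA probe of Egr3 was 2.43 and 1.22 with anisomycin and 2.63 and 1.34 with TNFα in wild type MEFs. In both groups the first array was the higher, and all 4 were above the pool. The means were 1.83 ± 0.28 (limma, SE, adjusted p = 4.08e-04) and 1.98 (adjusted p = 1.97e-04). After NaCl it was lower, with 1.09 and 0.26 at 45 min, 0.63 and 0.10 at 2 h, and 0.44 and 0.26 at 8 h, and no mean passed.

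With SB203580 this probe was 0.99 and 0.28 under anisomycin and 1.1002 and 0.65 under TNFα, below both arrays without the inhibitor in each stress. The latter was the third group to pass against the pool (0.88, limma, adjusted p = 0.0445). In p38α-/- MEFs it was 0.21 and 0.70 under anisomycin and 0.23 and 0.54 under TNFα, again below both wild type arrays, and 0.13 and -0.06 after NaCl for 2 h, where the groups overlapped.

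None of these direct differences of the RIKEN cDNA probe passed, although their sizes were -1.19 and -1.11 with SB203580 and -1.37 and -1.60 in p38α-/- MEFs under anisomycin and TNFα (limma, adjusted p of 1 or, in p38α-/- MEFs, 0.112 and 0.104, outlier spots kept). Within the scan batch shared by both genotypes the differences were -1.01 under anisomycin, -1.10 under TNFα and 0.03 after NaCl. Set against the unstressed group of the same arm, the rise of this probe was smaller than in wild type MEFs by 1.78 and 1.69 with SB203580 (adjusted p = 0.0336 and 0.0355) and by 1.60 and 1.83 in p38α-/- MEFs (adjusted p = 0.0496 and 0.0269) under anisomycin and TNFα. That single-probe comparison with outlier spots kept was chosen after the data were seen, and the share of all probes that passed in it is not given here. For the gene mean of Egr3 with outlier spots left out none of these differences passed. Under anisomycin and TNFα its adjusted p (limma) was 0.0768 and 0.288 with SB203580, and 0.101 and 0.293 in p38α-/- MEFs.

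The RefSeq probe of Egr3 showed no such rise. It was -0.18 and -0.32 with anisomycin, the latter an outlier spot, and -0.01 and -0.54 with TNFα. Its low values were in p38α-/- MEFs: -0.64 and -0.72 untreated, -1.101 and -0.68 with anisomycin, -0.77 and -0.49 with TNFα, and -1.11 and -0.79 with NaCl for 2 h. All 8 were below the pool, and the 4 means passed (-0.68, -0.89, -0.63 and -0.95, limma, SE 0.18, adjusted p = 0.0176, 0.0042, 0.0394 and 0.00182). In wild type MEFs it passed with NaCl for 8 h (-0.61, adjusted p = 0.0238). Its differences from wild type MEFs were -0.64, -0.35 and -0.75 under anisomycin, TNFα and NaCl (outlier spots kept) and none passed (adjusted p = 0.277, 0.741 and 0.187).

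The gene mean of Egr3 averages these probes and passed in 2 groups, anisomycin (1.17 ± 0.19, limma, SE, adjusted p = 6.43e-04) and TNFα (0.85, adjusted p = 0.00683; 0.40 and not passing without the first array). The RefSeq probe alone gave the opposite direction in both (-0.25, outlier spot kept, and -0.28). On the second wild type anisomycin array the mean rests on the RIKEN cDNA probe alone. The difference of p38α-/- from wild type MEFs under anisomycin, -1.39 ± 0.26 (adjusted p = 0.0111), averages unequal probes there, and with both probes on every array it was -1.01 and did not pass (adjusted p = 0.0936). It was also lost without either wild type array (-1.44 and -1.34) or the first p38α-/- array (-1.17). With the replicate number in the fit the difference under TNFα also passed (-0.98, adjusted p = 0.0176; 0.158 without it). The same fit called the gene mean against the pool in SB203580 with TNFα (0.43, adjusted p = 0.0441; 0.154 without the number) and in p38α-/- MEFs after NaCl (-0.46, adjusted p = 0.0224; 0.0949 without it).

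Egr4 stayed near the pool everywhere. It ranged from -0.36 to 0.26 over the 30 arrays with a median of 0.09, and it was above the pool on 22 and below it on 8. No mean of 14 passed. With outlier spots kept 1 of 15 did, that of p38α-/- MEFs after NaCl for 2 h (0.24, limma, adjusted p = 0.0422). All 8 p38α-/- arrays were above the pool (up to 0.24, median 0.16), as were 14 of 22 wild type arrays. No difference of Egr4 between SB203580 or p38α-/- MEFs and wild type MEFs passed in 7 tested.

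**Figure D4:**
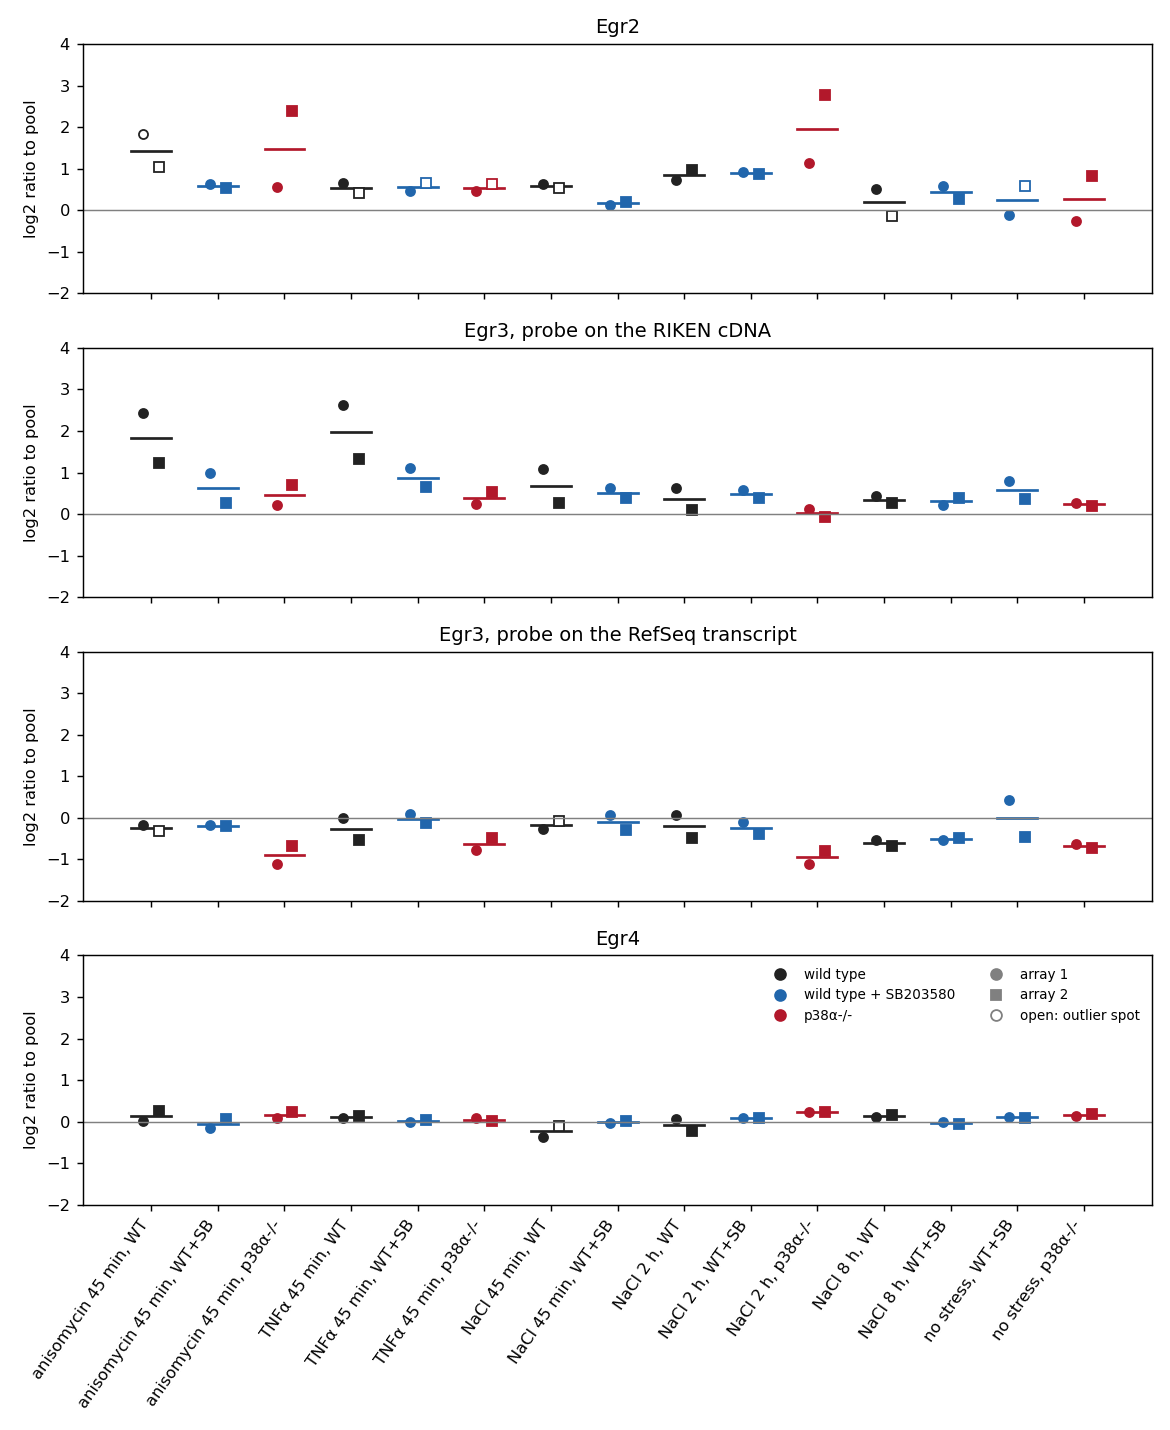
Log2 ratio to the pool of Egr2, of both Egr3 probes and of Egr4 on each of the 30 arrays, on 1 common vertical scale, with symbols as in the plot of Egr1. Egr2 is highest on the second p38α-/- arrays of anisomycin (2.40) and NaCl (2.78), the RIKEN cDNA probe of Egr3 under anisomycin and TNFα in wild type MEFs (up to 2.63), the RefSeq probe is below 0 on all p38α-/- arrays and Egr4 stays between -0.36 and 0.26.

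Around the members, a list of 44 genes of the pathway was followed (corepressors, regulators, genes described as Egr targets and other serum response genes), of which 42 were found on the array. In wild type MEFs 4 of 25 measured genes were higher and 1 lower with anisomycin, with a median of 0.01 beside 0.00 over all genes, of which 5.7% were higher and 6.18% lower. With TNFα 4 of 27 were higher and 1 lower (median 0.20, beside 5.2% and 5.57% of all genes). With NaCl for 2 h 7 of 34 were higher and 1 lower (median 0.15, beside 5.27% and 4.66%). After 8 h of NaCl 6 of 36 were higher and 6 lower (median 0.03, beside 11.0% and 11.1%). The largest share was after NaCl in p38α-/- MEFs, where 15 of 37 were higher and 2 lower (median 0.25, beside 9.02% of all genes higher and 8.85% lower).

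Listed genes that passed and were at least 2.5-fold from the pool on both arrays were few. Fos, an immediate early gene that also responds through Srf, did so in 11 groups, with means from 2.22 (TNFα in p38α-/- MEFs) to 3.96 (NaCl for 2 h). Among these was SB203580 alone, without stress, where Fos was 2.40 and 2.25 (limma, adjusted p = 2.11e-04). The spots of Fos were not both accepted under anisomycin in wild type MEFs. F3 (tissue factor), described as an Egr1 target, reached 1.52 with TNFα and 2.44 with NaCl for 2 h, and after NaCl for 2 h also 2.44 with SB203580 and 2.01 in p38α-/- MEFs. Gadd45b, a growth arrest gene, reached 1.72 and 1.58 in the same wild type groups, 1.60 and 1.89 in these with SB203580, and 1.82 in p38α-/- MEFs after NaCl. Cyr61, a secreted matrix protein of the serum response, had 2.20 with SB203580 and NaCl for 2 h (limma, adjusted p = 0.00128) and 2.59 in p38α-/- MEFs after NaCl (adjusted p = 5.58e-04). Trp73, a p53 family member described as an Egr1 target, had 1.95 with SB203580 and NaCl for 8 h (adjusted p = 1.67e-05).

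Nab2, a corepressor that Egr factors themselves induce, was tested with outlier spots kept, because these removed it in most groups. It was 1.09 and 0.88 with anisomycin, a mean of 0.99 (limma, SE 0.13, adjusted p = 4.87e-05). With TNFα the mean was 0.85 (adjusted p = 2.25e-04), and after 8 h of NaCl it was -0.63 (adjusted p = 0.00145) and -0.69 with SB203580 (adjusted p = 8.19e-04). Like Egr1, Nab2 was above the pool in the 45 min and 2 h wild type stress groups and below it at 8 h. It did not pass with SB203580 alone (0.17, limma, adjusted p = 0.324) or with SB203580 and NaCl for 2 h (0.10, adjusted p = 0.622). Nor did it in p38α-/- MEFs after NaCl for 2 h (0.34, adjusted p = 0.0729). Egr1 passed in all of these with outlier spots left out, and Nab2 passed in every other group. Nab1 means ranged between 0.04 and 0.73, and 6 of 15 passed, all higher: those of anisomycin and TNFα in wild type MEFs and all 4 of p38α-/- MEFs, with the highest after NaCl (adjusted p = 0.00103). In this fit with outlier spots kept, which Nab1, Nab2 and Srf share, 24.1% of all gene means passed. Srf had means between -0.64 and -0.03, and 6 passed, all lower. The lowest was that with SB203580 alone (adjusted p = 3.79e-04), and the others were untreated p38α-/- MEFs, NaCl for 8 h, and SB203580 with TNFα, NaCl for 45 min and NaCl for 8 h (-0.51 to -0.32).

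The genes whose group means ran most like those of Egr1 over the 13 groups with both spots accepted were Plk3 (Pearson r = 0.934), BC057627 (0.915), Tnfaip6 (0.912), Ier2 (0.907) and Ptpn2 (0.903), of 11399 genes compared. For the gene mean of Egr3 over 15 groups they were Malt1 (0.881), D130020G16Rik (0.874) and LOC434028 (0.872). For Egr2, over 8 groups, they were Sec14l4 (0.974), Abca6 (0.954) and 4933413J09Rik (0.947), and for Egr4, over 14 groups, Csf3r (0.827), Sema7a (0.798) and Arsb (0.795). All points share the pool and the arrays, Egr4 varied little, and these values are a description with no test.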

How the data were processed

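The authors amplified, labelled and hybridised total RNA and read the arrays with Agilent Feature Extraction (version 9.1 per the labels, 8.1.1.1 per the file headers). The deposited array files hold a log10 ratio of Cy5 (sample) over Cy3 (pool), background-corrected and dye-normalised, and processed signal intensities. The deposited value table of the series holds log2 ratios and served as an alternative. The study's methods name VSN for its normalised data, and whether the value table holds those values is not stated.

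Log10 ratios were turned into log2. Control and outlier spots were left out, values were averaged per probe and from probes per gene, and a gene entered a comparison only with both arrays of each group. All 15 groups were fitted together with limma 3.58.1 in R 4.3.3, with Benjamini-Hochberg adjustment over all genes at 0.05. The fit was tested on simulated data. Members and gene lists were chosen with earlier results of these data known. Pathway genes were named if they passed and were at least 2.5-fold from the pool on both arrays (Nab1, Nab2 and Srf always), and up to 5 genes per member by the highest Pearson correlation of group means.

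Alternatives were outlier spots kept, normexp (offset 50) with loess, the value table, the brightest probe, probes well above background, median centring, the replicate number or scan batch in the fit, only the compared groups, and each array left out. Same-numbered arrays deviated together within each genotype (correlation above 0.1 in 55 of 55 wild type and 6 of 6 p38α-/- pairs), and in 6 of 44 pairs across genotypes. The median correlation was 0.46 in wild type pairs, 0.25 in p38α-/- pairs and -0.005 across genotypes. The main fit left this pairing out, so its p-values do not take it into account. The scan times form 4 batches: the first wild type arrays, the second wild type with the first p38α-/- arrays, and 2 of second p38α-/- arrays.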

Additional observations from a re-analysis of the deposited data

Results flagged for a closer look

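The rise of Egr1 under anisomycin differed between arms in a test of the difference itself. Measured from the unstressed group of its own arm, it differed from the rise of wild type MEFs from the pool by -3.11 with SB203580 and by -2.09 in p38α-/- MEFs (limma, adjusted p = 0.00706 and 0.0425). The second of these was lost without any 1 of its 6 arrays (-2.32 to -1.85), and the first without the first wild type anisomycin array (-2.87) or the second array of SB203580 with anisomycin (-2.82). The wild type rise has the pool as its baseline and the others an unstressed array group, and the part of that unequal baseline in the differences was not tested.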

How the results depend on the processing

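Of 278 values of the 27 called differences under alternatives other than leaving out an array, 254 kept direction and call, 20 lost the call and 4 turned. The turned values were those of Egr3 against the pool on its RefSeq probe: with TNFα -0.28 (brightest probe, and that probe alone with outlier spots left out or kept), and with anisomycin -0.25 (outlier spots kept). Leaving out an array kept the call in 49 of 80 values and turned none. Among the other alternatives, fitting only the compared groups left fewer calls in every comparison that had any, except between NaCl times. With it Egr1 under anisomycin in wild type MEFs did not pass against the pool (limma, adjusted p = 0.156). The 278 values also include those of the filter on probes well above background, which could not change a value of a member.

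The 16 means called against the pool became 25 with both the replicate block and outlier spots kept (combined after the data were seen), 22 with the replicate block, 21 with the scan batch, 20 with outlier spots kept, the value table or the brightest probe, 11 with only the compared groups, and 15 to 17 without 1 array. The 1 of 13 differences with SB203580 became 0 of 20 with the value table and 0 of 13 with only the compared groups. Without 1 array it became 0 to 1. The 2 of 10 differences in p38α-/- MEFs became 0 of 12 with outlier spots kept and 0 of 10 with only the compared groups. They became 1 of 9 with the brightest probe, 4 of 10 with the replicate block, and 0 to 2 without 1 array. The 2 of 22 changed inductions became 4 of 22 with normexp or the replicate block, and 5 of 22 with the scan batch. They became 7 of 32 with the block and outlier spots kept, 0 of 22 with only the compared groups, and 0 to 3 without 1 array. The 3 of 17 differences between NaCl times became 5 of 24 with the value table and with the block and outlier spots kept. Without 1 array they became 3 to 4. The 0 of 16 differences between agents became 2 of 28 with outlier spots kept and 3 of 28 with the block and outlier spots kept. With normexp, the replicate block or the scan batch 1 of 16 passed. With the value table it was 1 of 28, with the brightest probe 1 of 13, and without 1 array 0 to 2. The 3 of 25 differences from the unstressed group of the same arm became 5 of 25 with the block. They became 6 of 32 with the block and outlier spots kept, 0 of 25 with only the compared groups, and 1 to 4 without 1 array. Shares over all genes stand beside the counts above where they were computed, and are not given here for the other fits. The cause of these shifts was not tested. The fits of only the compared groups hold fewer arrays, and the part of that in the lost calls was not tested either. Median centring left all these counts as they were. So did the filter on probes well above background. It could not change a member's value, because every Egr probe had that mark on every array.

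With 2 arrays per group the spread is known poorly: the 95% interval of the Egr1 difference with SB203580 after NaCl for 2 h ran from -1.15 to 0.35.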
